A study of Mus musculus with 18 samples.

Results

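The mouse histone cluster genes were examined across 6 groups of testis RNA-seq libraries. They were chosen by name, as every gene of the deposited table whose symbol begins with Hist1h, Hist2h, Hist3h or Hist4h, and number 66 of 20985 rows. Testes came from ICR mice aged 10 weeks, with 3 libraries in each group. The control group had no diet or agent in its labels, AOS mice received AOS at 10 mg/kg, and HFD mice received a high fat diet. HFD-AOS mice received the diet with AOS at 10 mg/kg, HFD-AOSFMT mice the diet with the FMT labelled AOS 10 mg/kg, and HFD-conFMT mice the diet with the FMT labelled control. AOS and FMT are given as the labels write them, and the series asked how FMT acts on the testis of mice on the diet. Nothing in the labels says that the libraries of a group are from different animals. The p-values therefore refer to the variation among libraries, which may be technical.

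Histone cluster genes encode the linker histone H1 and the core histones H2A, H2B, H3 and H4, which package DNA into nucleosomes. Most are transcribed in S phase, when NPAT drives them in nuclear bodies at the clusters, and their mRNAs end in a conserved stem-loop bound by SLBP in place of a poly(A) tail. The testis also has its own copies: Hist1h1t encodes the linker histone H1t of spermatocytes, and Hist1h2aa and Hist1h2ba encode the testis H2A and H2B. In elongating spermatids most histones are removed, and transition proteins and then protamines take their place.

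The 66 genes lie in 4 places of the mm10 genome, with coordinates from GENCODE M21. The main cluster holds 53 genes on chromosome 13, between positions 21715763 and 23934851. Chromosome 3 holds 10 between 96219865 and 96270132, chromosome 11 holds 2 and chromosome 6 holds 1. By class there were 6 H1, 18 H2A, 17 H2B, 12 H3 and 13 H4 genes.

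The 3′ stem-loop was searched for on the transcript strand as GGC, any base, CTT, any base, T, any base, AG, any base and GCC, within 100 bases after the stop codon. This pattern was set after the sequences were seen. It was present in 44 of the 49 members with at least 40 annotated bases after the stop codon (89.8%), and in 2 of 20712 other protein-coding genes of the same kind (0.00966%), H2afx and H2bfm. The other 17 members have shorter gene models. The printed sequences show the stem-loop in capitals, 5′ to 3′, for abundant genes of different classes and for Hist1h1t and Hist3h2ba.
Hist2h2aa1: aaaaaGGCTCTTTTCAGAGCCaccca
Hist1h2bp: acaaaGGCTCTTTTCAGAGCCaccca
Hist1h4a: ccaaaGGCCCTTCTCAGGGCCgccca
Hist1h1c: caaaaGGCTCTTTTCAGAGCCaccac
Hist3h2ba: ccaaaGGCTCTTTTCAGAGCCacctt
Hist1h1t: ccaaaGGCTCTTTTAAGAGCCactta
All 10 matched H4 genes opened with GGCCCTT and closed with AGGGCC, whereas the matched genes of every other class opened with GGCTCTT and closed with AGAGCC. Hist1h1t carried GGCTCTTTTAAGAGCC, a loop it shared with 2 H2B and 3 H3 genes, while the other 3 matched H1 genes carried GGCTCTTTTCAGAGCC. The 5 members without a match were Hist1h2bc at 13.9 FPKM, Hist2h2be at 7.45, Hist1h1a at 0.818, Hist1h4b at 0.194 and Hist1h4j at 0.005 on average. The library protocol used total RNA, and whether poly(A) RNA was selected or ribosomal RNA removed is not given in the sources used here.

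Defining genes of testis cells were present: Sycp3 of the meiotic synaptonemal complex averaged 182 FPKM and the steroidogenic Cyp17a1 280.5. Crisp1, an epididymal secretory gene, stood at 159 FPKM in control 3 and 104 in HFD-conFMT 2, 8.6 in HFD-conFMT 3 and 2.71 in control 1, and at 0.59 or less in the other 14 libraries. The only call is also given without the 2 libraries of highest Crisp1.

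Values are FPKM, in which fragment counts are scaled by transcript length and library size, so levels are compared per length. Expression was concentrated in a few genes. In all, 22 members averaged at least 1 FPKM over the 18 libraries, 7 of them at least 10 FPKM, and 44 lay below 1, of which 22 lay below 0.1. Hist1h2ab, Hist1h4f and Hist2h3b were listed at 0 in every library, and 21 members were above 0 in all of them. The 22 comprised 2 of 6 H1, 9 of 18 H2A, 5 of 17 H2B, 4 of 12 H3 and 2 of 13 H4 genes.

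**Figure D1:**
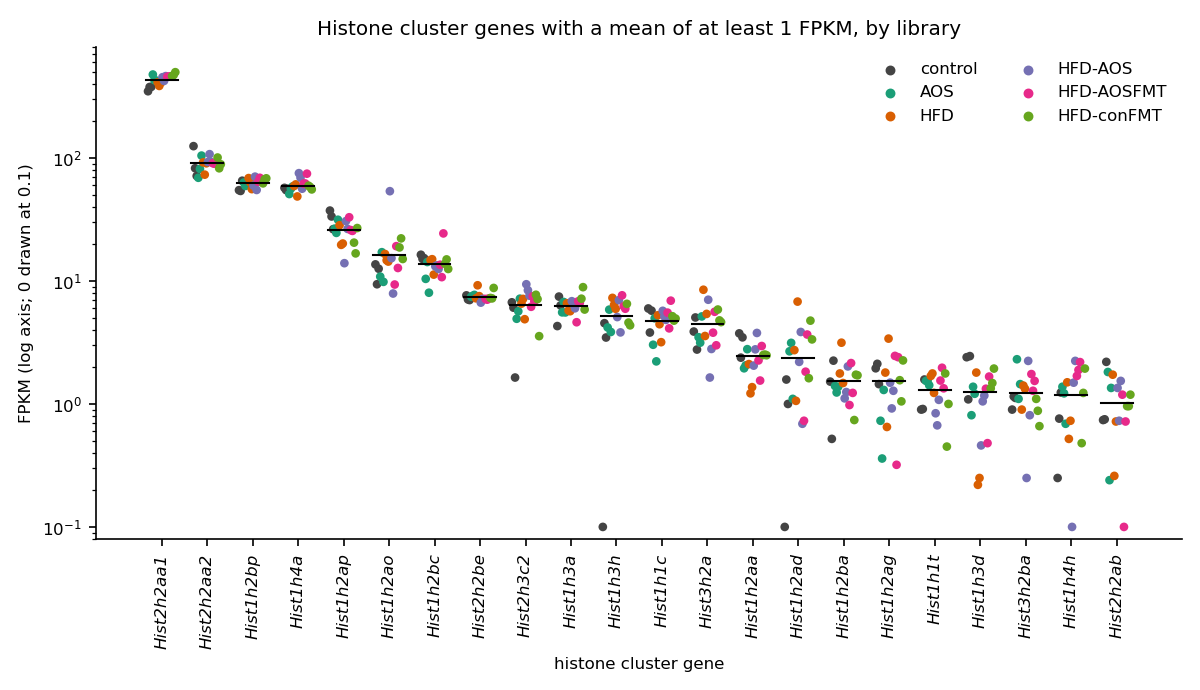
FPKM on a log axis for the 22 histone cluster genes that averaged at least 1 FPKM, with 1 point per library coloured by group and a line at the mean. Values of 0 are drawn at 0.1. Hist2h2aa1 at 434 FPKM stands above Hist2h2aa2 at 90.5, and the genes near 1 FPKM scatter far more than those above 50.

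Together the members made up 0.115% to 0.132% of the FPKM sum of a library. Their sum was 759 FPKM on average, from 678 to 827, and the H2A genes held 76.4% of it, H2B 11.7%, H4 8.3%, H3 2.7% and H1 0.9%. A single pair, Hist2h2aa1 and Hist2h2aa2, held 69.0%. The group means of the sum ran from 690.5 ± 15.3 FPKM in control and 715 ± 35.4 in HFD to 750.5 ± 11.7 in AOS, 794 ± 24.9 in HFD-AOS, 799 ± 17.02 in HFD-AOSFMT and 807 ± 17.3 in HFD-conFMT (SD, n = 3). Without that pair the 6 means lay between 220.4 ± 6.11 FPKM in AOS and 249 ± 29.9 in HFD-AOS, with 229 ± 9.96 in control. These sums are given as values and were not tested. The libraries' own FPKM sums differed too, from 588160 to 602604 in control and from 620942 to 632699 in HFD-conFMT, and values of Hist2h2aa1 on the TPM scale, where every library has the same sum, are given with its test.

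Hist2h2aa1 encodes a core histone H2A and lies at chr3:96245497-96246082 on the plus strand as a single exon. Hist2h2aa1 measured 349, 378 and 379 FPKM in the control libraries, 478, 430.0 and 427 in AOS and 413, 386 and 409 in HFD. Its values were 454, 424 and 464 FPKM in HFD-AOS, 458, 460.2 and 462 in HFD-AOSFMT and 464, 474 and 499 in HFD-conFMT. All control values lay below all values of every other group, and the 3 HFD values lay below those of the 4 remaining groups. The group means were 369 ± 16.9 FPKM in control, 402.5 ± 14.5 in HFD, 445 ± 28.5 in AOS, 447 ± 20.7 in HFD-AOS, 460.0 ± 2.00 in HFD-AOSFMT and 479 ± 18.2 in HFD-conFMT (SD, n = 3), a ratio of 1.299 from the lowest to the highest.

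Hist2h2aa1 was the only one of the 22 tested members called in the test over the 6 groups, which does not show that the others were unchanged. The limma F test gave Hist2h2aa1 an adjusted p of 0.033 after Benjamini-Hochberg adjustment over 13105 genes. At an unadjusted p under 0.05 by the same test there were 2 members (9.09%), Hist2h2aa1 and Hist1h2aa, against 18% of all genes. Of all genes tested, 0.328% were called by this test. This call was not stable: in leave-one-out fits it was lost in 9 of 18, namely without any 1 of the 3 control or 3 HFD-AOSFMT libraries, without HFD 3 and without HFD-conFMT 2 or 3, and the adjusted p ran from 0.0192 to 0.129. It was also lost on the TPM scale, at 0.0559, after removal of a trend with transcript length, at 0.0669, with quantile normalization, at 0.124, and without control 3 and HFD-conFMT 2, at 0.204. The fold changes moved less: that of AOS against control, 0.27 on the log2 scale, was 0.23 on the TPM scale, 0.26 with the length trend removed, 0.20 with quantile normalization and 0.29 without those 2 libraries.

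Hist2h2aa2, a neighbouring gene on the opposite strand at chr3:96239749-96240276, has the same coding sequence. Hist2h2aa2 measured 125, 82.7 and 71.5 FPKM in the control libraries, 69.1, 81.6 and 105 in AOS and 92.2, 73.3 and 90.6 in HFD. Hist2h2aa2 then read 92.9, 108 and 92.8 FPKM in HFD-AOS, 90.9, 90 and 91.1 in HFD-AOSFMT and 101, 82.5 and 89 in HFD-conFMT. Its groups overlapped throughout, and its highest and lowest values, in control 1 and AOS 1, were the libraries where Hist2h2aa1 was lowest in control and highest in AOS. Of the 50-base stretches in each transcript, 89.4% of those of Hist2h2aa1 and all of those of Hist2h2aa2 occur in another gene, so the split between the copies depends on how reads were assigned, which the sources used here do not give. Hist2h2aa1 held from 73.7% to 87.4% of the pair. Summed, the copies gave 462 ± 12 FPKM in control, 488 ± 24.96 in HFD, 530.1 ± 17.8 in AOS, 545 ± 12.6 in HFD-AOS, 551 ± 2.18 in HFD-AOSFMT and 570 ± 16.3 in HFD-conFMT (SD, n = 3), and the limma F test of the sum gave an adjusted p of 0.0329. The exons of Hist2h2aa1 are also overlapped by Gm20634 on the same strand and by Gm20633 and Gm47313 on the opposite strand, so reads of Gm20634 cannot be separated by strand, and those of the other two only if the counting used it, which is not given in the sources used here.

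**Figure D2:**
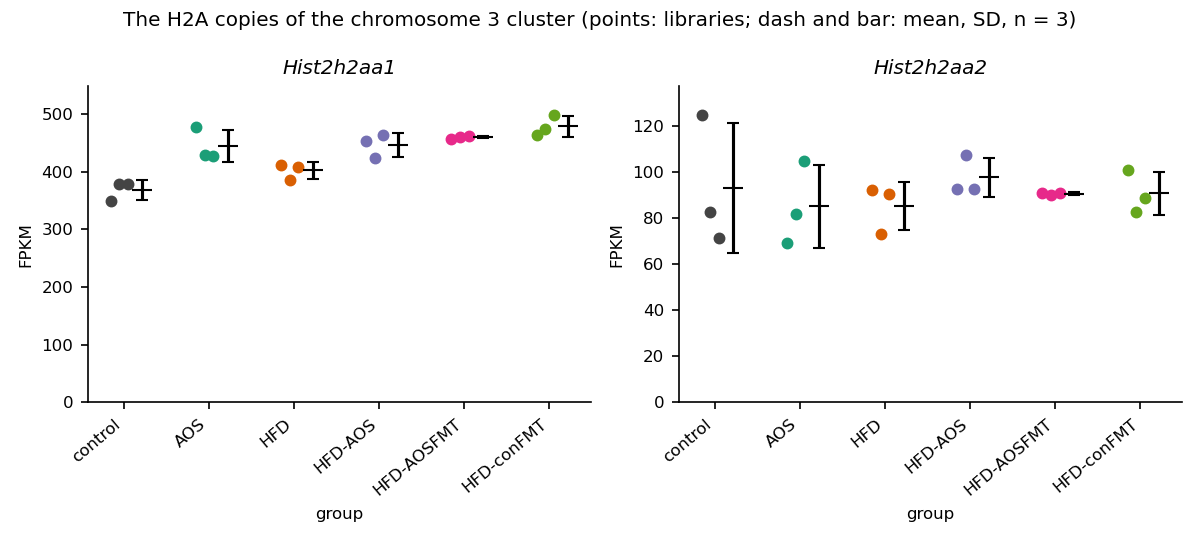
FPKM of Hist2h2aa1 (left) and Hist2h2aa2 (right) by group, with 1 point per library and the mean ± SD of 3 libraries beside them. Hist2h2aa1 runs from 369 in control to 479 in HFD-conFMT, while the groups of Hist2h2aa2 overlap around 90.5.

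Testis is a mixture of cells, and in bulk RNA fewer cells of a type and less RNA per cell cannot be told apart. Control and HFD, the groups lowest in Hist2h2aa1, were also lowest in 3 of the 13 lists read alongside, those of elongating spermatids, histone variants and Sertoli cells. In the 16 listed genes of elongating spermatids the mean deviation from each gene's mean on the log2 scale was -0.09 in control and -0.04 in HFD, against 0.00 in HFD-AOSFMT, 0.02 in HFD-conFMT, 0.03 in AOS and 0.08 in HFD-AOS. Their summed level was 56720 to 63220 FPKM in control, 53420 to 68070 in HFD and 65090 to 77880 in the other 4 groups, with none of the 16 at 0. The replication-independent and testis histone variants stood at -0.08 in control and -0.02 in HFD, against -0.01 in AOS, 0.00 in HFD-AOS, 0.05 in HFD-conFMT and 0.06 in HFD-AOSFMT. The Sertoli cell genes differed least, from -0.020 in control and -0.012 in HFD, close to -0.008 in HFD-conFMT, to 0.04 in HFD-AOS. Hils1 is in both the elongating spermatid and the variant list, so these lists are not independent. The 18 listed genes of round spermatids had another order, with -0.07 in control, -0.02 in AOS and 0.02 in HFD. The part of these in the Hist2h2aa1 result was not tested. Among 2415 genes with transcripts of 450 to 750 bases, the share with a log2 fold change below that of Hist2h2aa1 was 95.8% in AOS against control, 88.6% in HFD against control and 87% in HFD-AOS against HFD. It was 91.2% in HFD-AOSFMT against HFD, 93.6% in HFD-conFMT against HFD and 24.7% between the FMT groups.

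None of the next most abundant members passed the F test. Hist1h2bp, an H2B gene at chr13:21787461-21789213, came next by mean level. Hist1h2bp measured 54.8, 54 and 65.4 FPKM in the control libraries, 63.2, 59.3 and 60.6 in AOS and 68.7, 63.4 and 55.9 in HFD. The HFD-AOS libraries held 59.7, 70.6 and 55, the HFD-AOSFMT libraries 64.2, 69.1 and 65.2 and the HFD-conFMT libraries 62.2, 67.2 and 68.4 FPKM. Its group means went from 58.1 ± 6.36 FPKM in control to 66.2 ± 2.57 in HFD-AOSFMT (SD, n = 3) and the ranges of the groups overlapped in a chain. Hist1h4a, an H4 gene at chr13:23760692-23761230, was the most abundant of its class. Hist1h4a measured 57.2, 54.9 and 56.2 FPKM in the control libraries, 51, 56.4 and 58.7 in AOS and 59.3, 61 and 48.7 in HFD. Its values were 75.3, 69.3 and 56.3 FPKM in HFD-AOS, 62, 62 and 74.6 in HFD-AOSFMT and 59.6, 58.1 and 55.6 in HFD-conFMT. All 3 HFD-AOSFMT values lay above all HFD values and above all HFD-conFMT values, and HFD-AOS held the highest library but overlapped HFD. The F test of Hist1h4a gave an adjusted p of 0.282 with limma, and that of Hist1h2bp 0.575.

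Hist1h2ap and Hist1h2ao, at chr13:21833026-21833507 and chr13:21810465-21810944, encode H2A with identical coding sequences and share 93.1% and 93.5% of their 50-base stretches with other genes. Hist1h2ap measured 37.4, 33.5 and 26.4 FPKM in the control libraries, 26.7, 24.6 and 31.5 in AOS and 28.4, 19.7 and 20.2 in HFD. Hist1h2ap then read 14, 30.7 and 26.5 FPKM in HFD-AOS, 33, 25.9 and 25.6 in HFD-AOSFMT and 20.5, 16.8 and 27 in HFD-conFMT. Control libraries held the highest 2 values of Hist1h2ap, and the groups overlapped. Hist1h2ao measured 13.7, 9.41 and 12.6 FPKM in the control libraries, 10.9, 17.1 and 9.84 in AOS and 16.6, 14.7 and 14.4 in HFD. The HFD-AOS libraries held 53.8, 15.3 and 7.91, the HFD-AOSFMT libraries 9.36, 19.2 and 12.8 and the HFD-conFMT libraries 18.8, 22.2 and 15.1 FPKM. HFD-AOS 1 stood apart, with the highest Hist1h2ao and the lowest Hist1h2ap of all 18 libraries. Summed, the copies reached 67.7 FPKM in that library and 34.4 to 51.0 in the others, so the sum was less uneven than Hist1h2ao alone, whose spread within groups was 64.6% of the mean. The F test of the sum gave an adjusted p of 0.697 with limma.

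Opposite extremes of 2 copies in 1 library were also seen for H3 genes. Hist2h3c1 was above 0 in control 3, at 4.10 FPKM, and in HFD-conFMT 3, at 3.91, and was listed at 0 in the other 16. Its copy Hist2h3c2, with the same coding sequence, was lowest in those 2 libraries, at 1.64 and 3.56 FPKM, and lay between 4.89 and 9.41 elsewhere. The sum of both copies was 6.84 FPKM on average and lay between 4.89 and 9.41 with no library apart. In HFD-AOS the sum was 8.47 ± 0.912 FPKM and in HFD 6.20 ± 1.17 (SD, n = 3), a log2 difference of 0.41 (SE 0.12) with an adjusted p of 0.243 by limma. Hist1h2bq and Hist1h2br, a pair with 1 coding sequence, had equal values in 15 of 18 libraries and differed by at most 0.03 FPKM in the others. In all, 10 of the 66 members belonged to 5 such pairs, the fifth being Hist1h4m and Hist1h4n.

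**Figure D3:**
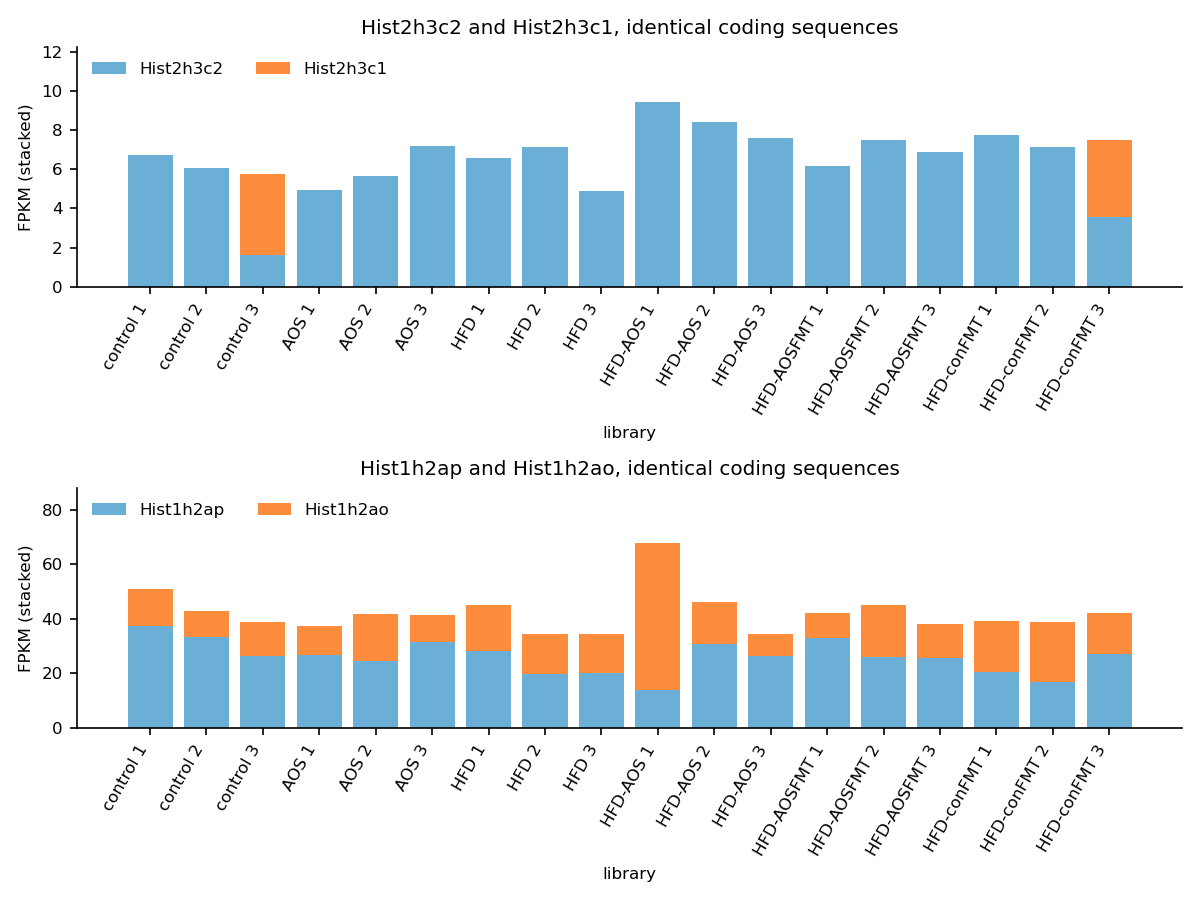
Stacked FPKM per library for Hist2h3c2 with Hist2h3c1 (top) and Hist1h2ap with Hist1h2ao (bottom), pairs with identical coding sequences. Hist2h3c1 appears only in control 3 and HFD-conFMT 3, where Hist2h3c2 is lowest, and Hist1h2ao reaches 53.8 in HFD-AOS 1, where Hist1h2ap is lowest at 13.96.

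Hist1h3h, an H3 gene whose 50-base stretches recur in other genes for 93.9% of its length, was listed at 0 in a single library. Hist1h3h measured 0, 4.54 and 3.47 FPKM in the control libraries, 4.19, 5.85 and 3.85 in AOS and 7.29, 6.4 and 5.94 in HFD. Its values were 5.09, 6.99 and 3.82 FPKM in HFD-AOS, 7.65, 6.23 and 5.95 in HFD-AOSFMT and 6.52, 4.59 and 4.36 in HFD-conFMT. HFD values lay above all control values. In control 1, where Hist1h3h was at 0, the near-copy Hist1h3i had its highest value, 4.95 FPKM, while 12 other libraries listed Hist1h3i at 0. The log2 fold change of Hist1h3h in HFD against control was 1.37 (SE 0.43), with an adjusted p of 0.624 by limma, and it was 0.60 without control 1.

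Testis linker histone H1t came from Hist1h1t, at chr13:23695814-23696725. Hist1h1t measured 0.9, 0.91 and 1.58 FPKM in the control libraries, 1.54, 1.55 and 1.42 in AOS and 1.69, 1.77 and 1.23 in HFD. Hist1h1t then read 0.84, 0.67 and 1.08 FPKM in HFD-AOS, 1.55, 1.97 and 1.34 in HFD-AOSFMT and 1.77, 0.45 and 1 in HFD-conFMT. The 3 HFD-AOS values lay below all HFD, AOS and HFD-AOSFMT values but overlapped control and HFD-conFMT. Group means were 0.863 ± 0.206 FPKM in HFD-AOS, 1.07 ± 0.663 in HFD-conFMT, 1.13 ± 0.390 in control, 1.503 ± 0.0723 in AOS, 1.56 ± 0.291 in HFD and 1.62 ± 0.321 in HFD-AOSFMT (SD, n = 3). Unlike the abundant copies, Hist1h1t shares none of its 50-base stretches with another gene. Its mean of 1.29 FPKM corresponds to about 15.5 reads in a library, from the size of the steps between low values, and counting alone would then give a spread of 25.4%, next to the 28.7% seen within groups.

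The testis H2A gene Hist1h2aa and the testis H2B gene Hist1h2ba lie head to head, at chr13:23934462-23934851 on the plus strand and chr13:23933773-23934156 on the minus strand. Hist1h2aa measured 3.75, 2.38 and 3.48 FPKM in the control libraries, 1.95, 2.06 and 2.79 in AOS and 2.11, 1.22 and 1.37 in HFD. The HFD-AOS libraries held 2.05, 2.78 and 3.78, the HFD-AOSFMT libraries 2.26, 1.55 and 2.96 and the HFD-conFMT libraries 2.5, 2.52 and 2.49 FPKM. HFD was the lowest group, at 1.57 ± 0.477 FPKM, and control the highest, at 3.20 ± 0.726 (SD, n = 3), with no overlap between them. Hist1h2ba measured 1.52, 0.52 and 2.25 FPKM in the control libraries, 1.4, 1.24 and 1.38 in AOS and 1.77, 3.15 and 1.48 in HFD. Its values were 1.11, 1.25 and 2.02 FPKM in HFD-AOS, 0.98, 2.15 and 1.23 in HFD-AOSFMT and 0.74, 1.73 and 1.71 in HFD-conFMT. Hist1h2ba was highest in HFD, at 2.13 ± 0.892 FPKM, and between 1.34 and 1.46 in the other group means, and its groups overlapped. About 12.6 and 7.8 reads a library stood behind these 2 genes. Of the 50-base stretches, 2.3% of Hist1h2aa and 38.2% of Hist1h2ba recur in other genes.

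Hist3h2ba is an H2B gene of the small chromosome 11 group, at chr11:58948920-58949533. Hist3h2ba measured 0.9, 1.15 and 1.12 FPKM in the control libraries, 2.31, 1.1 and 1.45 in AOS and 0.9, 1.41 and 1.33 in HFD. Hist3h2ba then read 0.25, 2.24 and 0.81 FPKM in HFD-AOS, 1.75, 1.28 and 1.54 in HFD-AOSFMT and 1.1, 0.88 and 0.66 in HFD-conFMT. HFD-AOS held both the lowest value and the second highest, and the 3 HFD-AOSFMT values lay above all HFD-conFMT values. About 10.0 reads a library stood behind it. All of these genes were low beside spermatid and replication-independent histones measured in the same libraries: Hils1, the linker histone of spermatids, averaged 571 FPKM, the testis linker histone gene H1fnt 455, the H2A variant gene H2al2a 451, the H3.3 genes H3f3a 460.2 and H3f3b 233, and Prm1, which encodes protamine 1, 14840. Hist1h1t and Hist3h2ba carry the stem-loop, whereas of these comparison genes only the lower H2afx and H2bfm were among those matched. Whether poly(A) RNA was selected is not given in the sources used here. These levels may therefore not be comparable between the 2 kinds of gene, and the part of this in the gap was not tested.

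**Figure D4:**
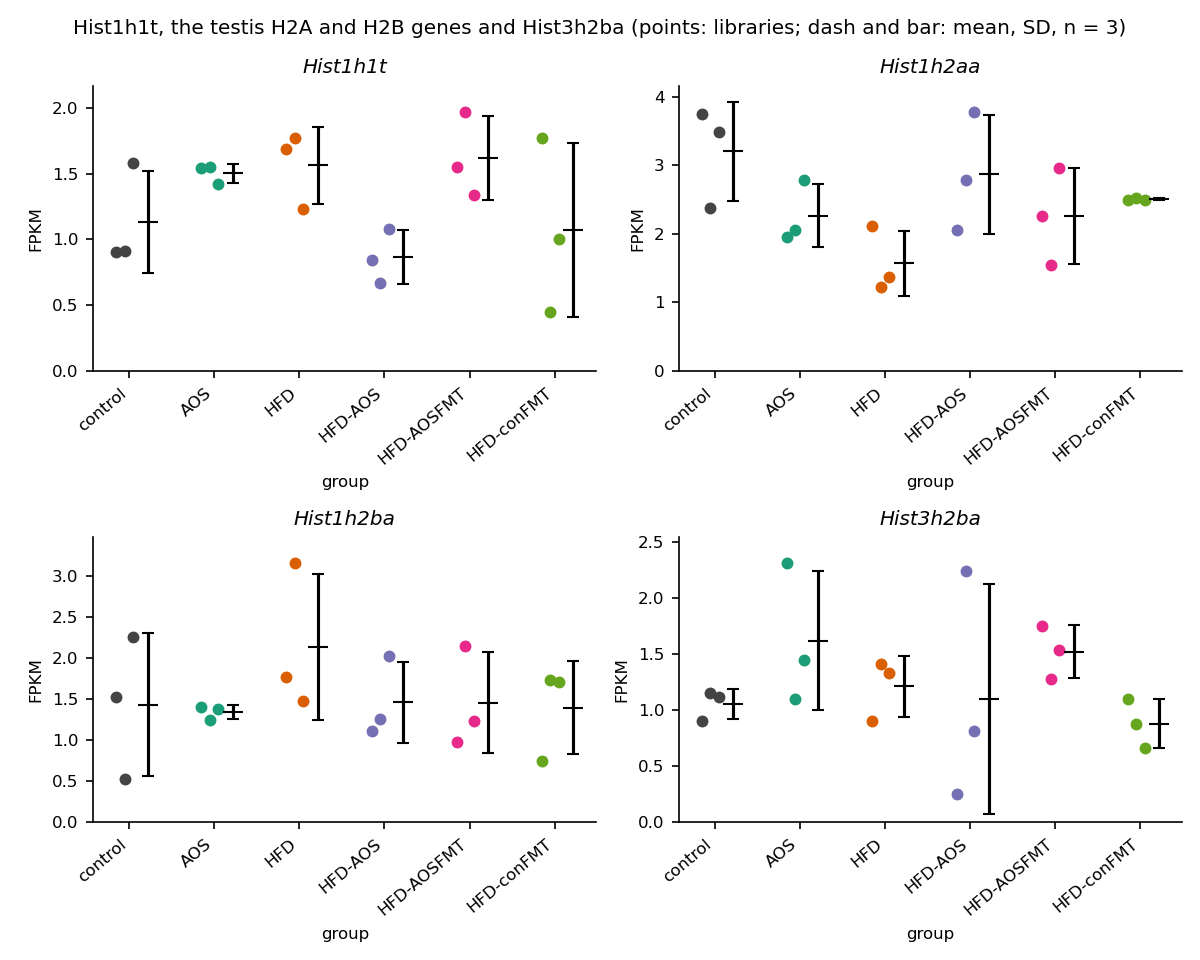
FPKM of Hist1h1t, Hist1h2aa, Hist1h2ba and Hist3h2ba by group, with 1 point per library and the mean ± SD of 3 libraries beside them. Hist1h2aa is lowest in HFD at 1.57 and Hist1h1t in HFD-AOS at 0.863, while most groups overlap.

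Hist1h1t and Hist1h2ba were compared across the 18 libraries after group means were removed on the log2 scale, as 2 testis genes of different classes. Pearson's r was 0.161 (permutation p = 0.529) and Spearman's rho 0.327 (permutation p = 0.183), and this was the only relation computed. Without the 2 libraries farthest from the median of Hist1h1t, r was 0.746 over 16 libraries. With single libraries left out r ran from -0.044 to 0.647, so no steady relation was measured between these genes, which rest on about 15.5 and 7.8 reads a library.

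Promoters were read from RefSeq on GRCm38.p6, the same assembly as mm10, as the 250 bases before each gene's start, and 60 of the 66 members had one. Motifs were searched on both strands. A member counted if any of its promoter windows held the motif, whereas the share of all promoters is taken over single windows, the members' own included. CCAAT (or ATTGG) occurred in 49 of 60 (81.7%), against 33.8% of all 32851 promoters, and in all 17 H2A and all 15 H2B genes but in 3 of 12 H4 genes. ATTTGCAT, the octamer bound by OCT1 at H2B genes, or its reverse ATGCAAAT occurred in 14 (23.3%), against 1.6% of all, and only in H2A (7 of 17) and H2B genes (7 of 15). The windows of head-to-head genes can overlap, as those of Hist1h2ba and Hist1h2aa do, so 1 match can count for both genes. TATAAA or TTTATA occurred in 28 (46.7%), against 12.4%, and AAACACA or TGTGTTT in 9 (15%), against 6.2%, of which 5 were among the 6 H1 genes. The sequences printed are those of Hist2h2aa1, of Hist1h1t and of the interval shared by Hist1h2ba and Hist1h2aa, with matches in capitals.
Hist2h2aa1, chr3:96245247-96245496, plus strand: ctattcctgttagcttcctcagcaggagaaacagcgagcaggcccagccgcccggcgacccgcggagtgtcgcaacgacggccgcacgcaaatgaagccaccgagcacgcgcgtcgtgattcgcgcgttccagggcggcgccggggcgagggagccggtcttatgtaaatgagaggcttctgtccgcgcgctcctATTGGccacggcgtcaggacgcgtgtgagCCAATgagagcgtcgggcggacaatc
Hist1h1t, chr13:23695561-23695810, plus strand: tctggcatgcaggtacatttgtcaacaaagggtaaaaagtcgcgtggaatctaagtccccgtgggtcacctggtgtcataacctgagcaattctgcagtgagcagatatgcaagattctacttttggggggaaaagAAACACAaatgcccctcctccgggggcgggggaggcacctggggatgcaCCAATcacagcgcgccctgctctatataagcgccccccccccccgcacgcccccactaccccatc
Hist1h2ba and Hist1h2aa, chr13:23934157-23934436, plus strand: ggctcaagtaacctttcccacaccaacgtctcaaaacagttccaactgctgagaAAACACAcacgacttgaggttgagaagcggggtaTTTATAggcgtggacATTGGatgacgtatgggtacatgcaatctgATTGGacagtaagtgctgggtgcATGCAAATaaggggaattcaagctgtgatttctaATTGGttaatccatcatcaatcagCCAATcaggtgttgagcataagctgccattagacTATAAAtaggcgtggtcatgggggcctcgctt
The Hist2h2aa1 promoter held CCAAT once on each strand and none of the other motifs. That of Hist1h1t held 1 CCAAT and 1 AAACACA. The shared testis H2A and H2B interval held 4 CCAAT motifs, 3 of them on the minus strand, a TATAAA on each strand, 1 octamer on the minus strand and 1 AAACACA. A match is a description of these letters and was not tied to binding.

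The remaining members with at least 1 FPKM were low. Hist1h1c, the gene of a somatic linker histone, lies at chr13:23738808-23740367. Hist1h1c measured 5.98, 3.81 and 5.74 FPKM in the control libraries, 3.03, 4.98 and 2.22 in AOS and 5.27, 4.45 and 3.18 in HFD. The HFD-AOS libraries held 5.72, 5.16 and 4.83, the HFD-AOSFMT libraries 5.53, 4.12 and 6.92 and the HFD-conFMT libraries 5.17, 4.76 and 4.95 FPKM. AOS was lowest, at 3.41 ± 1.42 FPKM, but AOS 2 lay within the control range. Hist1h2bc averaged 13.9 FPKM and was lower in every AOS than in every control library, from 8.03 to 14.3 against 15.1 to 16.4. Hist2h2be, an H2B gene, averaged 7.45 FPKM with a spread within groups of 8.1%, and Hist1h3a, an H3 gene, 6.30 FPKM with 17.6%. Hist3h2a, an H2A gene, averaged 4.45 FPKM, and it overlaps the first exon of Trim17 on the same strand, a gene at 152 FPKM. The H2A genes Hist1h2ad, Hist1h2ag and Hist2h2ab averaged 2.38, 1.53 and 1.03 FPKM, the H3 gene Hist1h3d 1.25 and the H4 gene Hist1h4h 1.19. The spread of these 5 within groups was 47.4% to 72.2% of the mean.

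Of the 44 members below 1 FPKM on average, 12 reached 1 FPKM in at least 1 library. Hist1h3i did so in 5 libraries, Hist1h1a in 3, and Hist2h2bb, Hist2h2ac, Hist1h4i and Hist2h3c1 in 2 each. Hist4h4, Hist1h2an, Hist1h3e, Hist1h2ah, Hist1h4c and Hist1h4b did so in 1 library each. These 44 were not tested.

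For AOS against control, a comparison of the agent without diet, no member passed the test. Under limma, 0 of 22 members had an adjusted p under 0.05, against 0.0229% of all genes, and 4 of 22 had an unadjusted p under 0.05 (18.2%), against 15.8% of all genes. These were Hist2h2aa1 and Hist1h3h, which were higher, and Hist1h1c and Hist1h2bc, which were lower. The log2 fold change of Hist2h2aa1 was 0.27 (SE 0.05) with an adjusted p of 0.0752 by limma, and it passed with array weights, at 0.0263, and without HFD-AOS 1, at 0.0468. That of Hist1h1c was -0.51 (SE 0.21), adjusted p = 0.254. The 3 and 3 values did not overlap for 1 member that was higher, Hist2h2aa1 (7.96% of all genes), and for 2 that were lower, Hist1h2ag and Hist1h2bc (15.2%). The median over the 22 was 0.01 and over all genes -0.03.

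For HFD against control, which concerns the diet alone, 0 of 22 members and 0% of all genes had an adjusted p under 0.05 by limma. At an unadjusted p under 0.05 there were 5 of 22 (22.7%), against 6.75% of all genes. Hist1h3h, Hist1h2ad and Hist2h2aa1 were higher, and Hist1h2aa and Hist1h3d lower. Hist1h2aa, the testis H2A gene, had the smallest p, with a log2 fold change of -0.71 (SE 0.19) and an adjusted p of 0.583. Values did not overlap for 3 higher members, Hist2h2aa1, Hist1h3h and Hist1h2ao (5.17% of all genes), and for 2 lower ones, Hist1h2aa and Hist1h2bc (7.35%). Hist1h3h had the next smallest p, with the values given above, and the median over the 22 was 0.10 against -0.01 over all genes.

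For HFD-AOS against HFD, the agent on the diet, 0 of 22 members and 0% of all genes were called by limma, and 4 members (18.2%) against 12.7% of all genes had an unadjusted p under 0.05. Hist1h2aa had a log2 fold change of 0.58 (SE 0.19, adjusted p = 0.257), Hist2h2aa1 of 0.15 (SE 0.05, adjusted p = 0.278) and Hist1h4a of 0.24 (SE 0.10, adjusted p = 0.354). Hist1h1t was lower, by -0.46 (SE 0.19, adjusted p = 0.339). Values did not overlap for 3 higher members, Hist2h2aa1, Hist2h2aa2 and Hist2h3c2 (4.9% of all genes), and for 2 lower ones, Hist1h1t and Hist2h2be (8.49%). The AOS difference on the diet minus that without it was tested in the same model. Of the 22 members and of all genes, 0 and 0% passed by limma, while 3 members (13.6%) against 6.86% of all genes had an unadjusted p under 0.05. The difference was 0.94 (SE 0.26, adjusted p = 0.547) for Hist1h2aa, -0.71 (SE 0.26, adjusted p = 0.703) for Hist1h1t and 0.77 (SE 0.30, adjusted p = 0.703) for Hist1h1c on the log2 scale.

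Both FMT groups were compared with HFD and with each other. For HFD-AOSFMT against HFD, limma called 0 of 22 members against 0.0229% of all genes, and 2 members (9.09%) against 9.82% of all genes had an unadjusted p under 0.05. They were Hist2h2aa1, with a log2 fold change of 0.19 (SE 0.05, adjusted p = 0.323), and Hist1h4a, with 0.23 (SE 0.10, adjusted p = 0.473). Values did not overlap for 3 higher members, Hist2h2aa1, Hist1h4a and Hist1h4h (8.34% of all genes), and for 1 lower one, Hist2h2be (8.88%). For HFD-conFMT against HFD, limma called 0 of 22 members and 0% of all genes, and 3 members (13.6%) against 12.3% of all genes had an unadjusted p under 0.05. Hist2h2aa1 had a log2 fold change of 0.25 (SE 0.05, adjusted p = 0.107) and Hist1h2aa of 0.46 (SE 0.19, adjusted p = 0.346), and Hist1h3d was the other. Values did not overlap for 2 higher members, Hist2h2aa1 and Hist1h2aa (10.3% of all genes), and for 0 lower ones (9.83%). The 3 comparisons with HFD share the same HFD libraries, and the AOS and HFD comparisons with control share the control libraries, so their values are not independent of each other. HFD against control uses the same 3 HFD libraries with the opposite sign, so the -0.71 of Hist1h2aa there and its 0.58 and 0.46 against HFD rest on the same low HFD values. Between HFD-AOSFMT and HFD-conFMT, limma called 0 of 22 members against 0.00763% of all genes, and at an unadjusted p under 0.05 there were 0 members against 3.12% of all genes. The smallest p belonged to Hist1h1t, with 0.38 (SE 0.19), and Hist1h4a, with 0.19 (SE 0.10), both with an adjusted p of 0.9996. Values did not overlap for 2 higher members, Hist1h4a and Hist3h2ba (4.68% of all genes), and for 1 lower one, Hist2h2aa1 (5.39%).

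**Figure D5:**
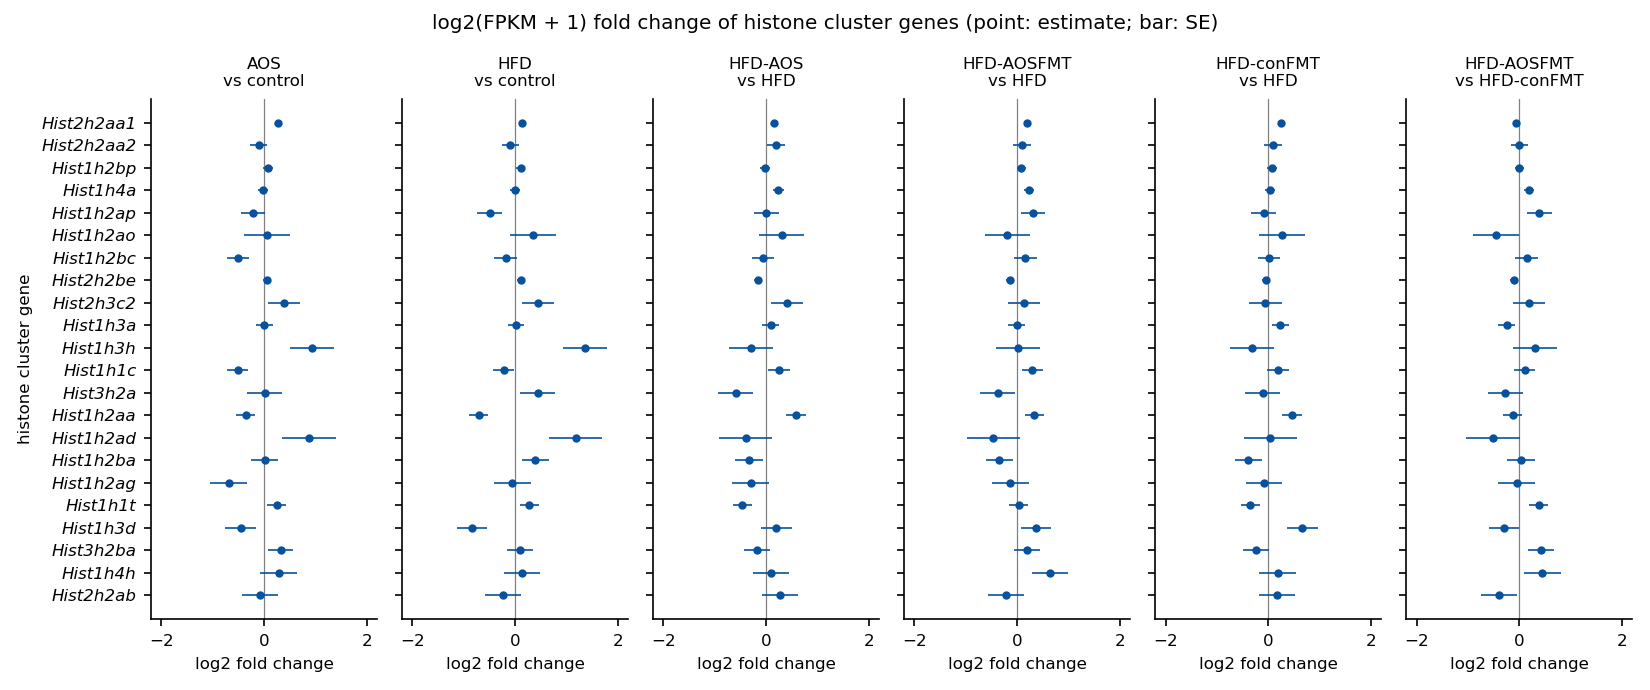
Fold change of log2(FPKM + 1) with its SE for the 22 members in 6 comparisons, ordered from the highest mean level at the top. Hist2h2aa1 has the shortest bars (SE 0.05), and those of lower genes such as Hist1h3h (SE 0.43) are wider.

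None of the marker lists of spermatogonia, spermatocytes, round or elongating spermatids, Sertoli, Leydig or peritubular smooth muscle cells, leukocytes or epididymal epithelium had a gene called by limma in any of the comparisons, where at most 0.0229% of all genes were called. At an unadjusted F test p under 0.05, against 18% of all genes, there were 9 of 18 round spermatid genes, 6 of 16 of elongating spermatids, 5 of 21 of spermatocytes and 4 of 9 of leukocytes. Leydig cells had 3 of 10, epididymal epithelium 2 of 5, peritubular smooth muscle 1 of 7, and spermatogonia and Sertoli cells 0 of 11 and 0 of 12. The 2 of epididymal epithelium were Wfdc10, at 35.3 to 69.7 FPKM over the 18 libraries, and Cst8, at 240 to 345. Crisp1 was not among them. Both Wfdc10 and Cst8 were thus at such levels in every library, also those with the least Crisp1. They may therefore not mark epididymal tissue here, and the tissue they came from was not tested. At an unadjusted p under 0.05, 8 of 16 elongating spermatid genes were higher in HFD-AOS than in HFD (4.89% of all genes) and 5 of 16 in AOS than in control (5.58%), and 6 of 9 leukocyte genes were higher in HFD-conFMT than in HFD (7%). The part of these in the values of the histone genes was not tested. Genes that make, process and carry histone mRNA and protein were read alongside, and none was called by limma in any of the comparisons or in the F test either. Of 23 tested genes of histone mRNA 3′ processing and transcription, 1 was higher and 3 were lower in AOS against control at an unadjusted p under 0.05, where 5.58% and 10.2% of all genes were, and 2 had an F test p under 0.05. Slbp, whose product binds the stem-loop, lay between 48.9 and 54.5 FPKM in all 18 libraries (F test adjusted p = 0.780), and Npat, the histone gene coactivator, between 6.75 and 8.51 (0.427). The smallest p of this list were those of the small nuclear ribonucleoprotein gene Snrpf (adjusted p = 0.116), of Tut7, which encodes a uridylyl transferase (0.190), and of Snrpb (0.350). Of 21 chaperone genes, 2 were higher and 5 lower in AOS against control at that p, and 7 had an F test p under 0.05, against 18% of all genes. Supt16 (0.143), Nasp (0.182) and Npm3 (0.208) came first, and Nasp, an H1 and H3-H4 chaperone abundant in testis, lay between 372 and 434 FPKM. Of 15 tested replication-independent and testis variants, H2afz (0.202), H2al2a (0.240) and H2afy (0.244) came first, and Hils1 had 0.350. Of 32 tested S-phase genes, Tk1 (0.142), Cdc45 (0.200) and Lig1 (0.263) came first, and Pcna, the replication clamp, lay between 68.8 and 82.9 FPKM (0.873).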

How the data were processed

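Testis RNA from 18 mouse libraries in 6 labelled groups of 3 was measured by RNA-seq. The authors deposited 1 table of 20985 rows whose header names no unit and whose values, FPKM as read here, had been scaled by transcript length and library size before deposit. That unit was inferred because the sums differ between libraries and the steps between low values scale with transcript length. Reads were mapped with Bowtie 0.12.2 to mm10, per the submitters' processing notes. How fragments were counted, on which annotation and strand, and what was done with reads of several matches is not given in the sources used here, which bears on near-identical histone copies. All 18 columns were matched to samples by name.

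Values were taken as log2(FPKM + 1), and the 13105 genes averaging 1 FPKM or more were fitted with limma 3.58.1 (R 4.3.3), with 6 group means, a mean-variance trend and 12 residual degrees of freedom. Benjamini-Hochberg adjustment ran over all genes tested, with a threshold of 0.05 and two-sided tests. Fold changes on this scale understate those of low genes. Any 2 libraries differed in at least 99.2% of tested genes, so no library was a copy of another. Repeated symbols (6 rows) did not enter the fit.

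Depth is not given. From 431 genes with 1 transcript, the value of 1 read implied about 13190000 fragments a library (interquartile range 11000000 to 15890000), an estimate behind the read numbers printed. All 66 members matched GENCODE M21. A script searched transcripts and RefSeq promoters for the motifs named. Python 3.11.15 and matplotlib 3.10.9 drew the figures.

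The members, gene lists and tests were chosen with earlier results of these data known. Every member with at least 1 FPKM is named. Values in every library are given for Hist1h1t, Hist1h2ba, Hist1h2aa, Hist3h2ba, the 6 most abundant members, the 6 with smallest F test p and the 2 with smallest p in each comparison. Of the 4 lists of histone processing, chaperones, variants and S phase, the 3 genes of smallest F test p and Slbp, Npat, Nasp, Pcna and Hils1 are named by rule. H1fnt, H3f3a, H3f3b, H1fx, H2afx, H1f0, H2bfm, Prm1, Sycp3, Cyp17a1, Crisp1, Wfdc10, Cst8 and Trim17 are named outside it, chosen after their values were seen. Marker lists covered spermatogonia, spermatocytes, round and elongating spermatids, Sertoli, Leydig, peritubular smooth muscle, leukocytes and epididymal epithelium. The closing section gives the alternatives tried.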

Additional observations from a re-analysis of the deposited data

How the results depend on the processing

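Across alternatives to pseudocount, filter, scaling, weights, block and libraries used, 397 values of 14 fold changes of histone genes gave 0 reversals, and 2 values newly passed the test, both of Hist2h2aa1 in AOS against control. In the fit with identical coding sequences summed, the values counted under Hist2h2aa1 are those of its sum with Hist2h2aa2. The F test call of Hist2h2aa1 held in 15 of 28 alternatives (adjusted p from 0.0112 to 0.204 by limma). The fit of that sum is among the 15. Members called in the F test went from 1 to 0 with quantile normalization, without control 3 and HFD-conFMT 2 together, on the TPM scale and with the length trend removed, while with array weights 1 member was called in AOS against control. The fits on the TPM scale, with the length trend removed and with identical coding sequences summed were added after seeing the data. The tests of summed copies given above come from the last of these fits. Genes called in the F test were 43 in the main model, 12 with quantile normalization, 130 with array weights, 1 without that pair of libraries and 5 with the length trend removed. In AOS against control 3 genes were called, 240 with array weights and 0 with no filter, quantile normalization, only the 2 groups compared, without that pair, on the TPM scale or with the length trend removed. In HFD against control 1 gene was called with only the 2 groups compared, in place of 0. In HFD-AOS against HFD, 2 were called with no filter and 1 on the TPM scale, in place of 0. In HFD-AOSFMT against HFD, 3 became 26 with no filter, 5 at a mean of at least 5 FPKM or on the TPM scale, 7 with array weights, and 1 with quantile normalization, without that pair or with the length trend removed. In HFD-conFMT against HFD, 0 became 3 with no filter, 9 with array weights and 1 without that pair or with only the 2 groups compared. Between the FMT groups 1 became 16 with no filter. The summed member level was 759 FPKM and 1235 on the TPM scale, which has another total. The cause of these shifts was not tested.

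With each library left out in turn, genes called ran from 0 to 44 in AOS against control (members 0 to 1), from 0 to 4 in HFD-AOS against HFD, from 1 to 6 in HFD-AOSFMT against HFD, from 0 to 17 in HFD-conFMT against HFD and from 2 to 146 in the F test (members 0 to 1). The 146 came without HFD-AOS 3, the 44 and the 17 without HFD-AOS 1. The correlation of Hist1h1t with Hist1h2ba ran from -0.044 without control 3 to 0.647 without HFD-conFMT 1. Replicate numbers did not pair the samples: deviations of same-numbered libraries had a mean correlation of -0.002 over 45 pairs, and 5 of 18 libraries correlated best with their own number. With a replicate block, genes called were 20 in the F test and 1 in HFD-AOSFMT against HFD, and Hist2h2aa1 had an adjusted p of 0.0409 in the F test. The 9 lowest tested members rest on about 6.0 to 20.6 reads a library. Their spread within groups was 24.8% to 72.2%. The estimate from counting alone was lower in all but Hist1h2aa, but close for Hist1h1t, at 25.4% against 28.7%, and Hist1h2ba, at 35.8% against 42.0%. That estimate rests on approximate read numbers, and whether the spread exceeded it was not tested.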

Other observations

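Control 3 held the highest value of several low histone genes: Hist2h2ab at 2.2 FPKM, Hist1h3d at 2.45, Hist2h2bb at 1.81 and Hist1h1a at 1.77. The same library had the highest level of Crisp1, an epididymal secretory gene, at 159 FPKM, followed by HFD-conFMT 2 at 104. In HFD-conFMT 2, Hist2h2ab measured 0.96 FPKM, Hist1h3d 1.48, Hist2h2bb 0 and Hist1h1a 0.55. The low histone genes named here rest on about 3.0 to 20.6 reads a library, and the highest values held by other libraries were not counted. These genes were chosen after their values were seen, and the part of one in the other was not tested.

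Hist1h1c and Hist1h2bc, both on chromosome 13, were lowest in the same library, AOS 3, at 2.22 and 8.03 FPKM, and highest in the same library, HFD-AOSFMT 3, at 6.92 and 24.4 FPKM. They share 8.5% and 30.1% of their 50-base stretches with other genes. Neither was called by limma, with F test adjusted p of 0.355 and 0.521, and the pair was chosen after its values were seen.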
